A study of Mus musculus with 4 samples.

Results

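Neurogenesis and young neuron genes were followed as 9 genes, chosen by name among the 13577 genes of the deposited table. They are the proneural factors *Neurog1* and *Neurod1* and the differentiated neuron genes *Tubb3*, *Dcx*, *Stmn2*, *Gap43*, *Elavl3*, *Elavl4* and *Mapt*, and all 9 were listed and tested. Bulk RNA-Seq had been performed on nasal process (NP) tissues of mouse embryos at E11.5, in 2 libraries titled control and in 2 titled as ca-*Acvr1(A11)* mutants. By the study's methods the control embryos carried *P0-Cre* and no transgene (written ca-*Acvr1[A11]+/+*), and the mutant embryos carried *P0-Cre* and 1 floxed ca-*Acvr1[A11]* transgene, which encodes a constitutively active BMP type I receptor. *P0-Cre* was therefore shared by both groups, and it turns the transgene on in neural crest cells, whereas forebrain neurons and most olfactory neurons are known to arise from other ectoderm. The background was mixed and both sexes were combined. The genotype entries of the samples give the groups the other way round, so that each direction given here would be the opposite if those entries, and not the titles, were right. From stained sections, the study reports less proliferation and more cell death in the mesenchyme of mutant NP tissue. It also reports that staining for Neurofilament, a sensory neuron marker, was not overtly altered in mutants at E11.5. Grouped by title, limma called 8 of 10 mesenchyme genes lower in the mutants and 1 higher, beside 0.594% and 0.305% of all genes tested. That list was chosen with earlier results of these data known. In the same grouping, the log2 fold changes of *Acvr1*, *Id1*, *Id2* and *Id3* were −0.33, −0.50, −0.57 and −0.33. That of *Id4* was 0.46, and limma called none of these genes. Which of the labels is right was not tested. The labels do not say whether the libraries came from separate animals, and p-values measure only the spread between these 4 libraries.

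Proneural factors are basic helix-loop-helix proteins that commit progenitors to a neuronal fate. They pair with E proteins and bind E-boxes, short DNA motifs read as CANNTG, and Id proteins hold the E proteins away from them. In the nose, *Neurog1* and *Neurod1* act in the olfactory placode and its neuron precursors, after which young neurons switch on tubulins, microtubule-binding proteins, growth cone proteins and neuronal RNA-binding proteins.

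Values are CPM, the reads of a gene scaled by the total of its library, and come from the 3′ ends of transcripts, so that a long transcript gives no more reads than a short 1. Read counts were recovered by taking the smallest step between the CPM values of a library as 1 read. By this estimate a single read stood for 0.415 to 0.511 CPM. The library totals that follow from it were 1956831 and 2252586 reads in control and 2408827 and 2137027 reads in ca-*Acvr1(A11)*. The 9 genes had from 24 to 545 reads in a library. *Acvr1* itself (Entrez 11477) was at 21.5 and 23.1 CPM in the controls against 24.1 and 12.6 CPM in the mutants. Its groups overlapped (log2 fold change −0.33, 95% interval −0.90 to 0.24, limma adjusted p = 0.786), and whether reads from the end of the transgene's own transcript are counted as *Acvr1* is not given in the sources used here.

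None of the 9 genes passed an adjusted p of 0.05 in limma on log2(CPM + 1), in either direction, where 0.305% of the 12462 genes tested were called higher and 0.594% lower in mutant libraries. limma-voom, edgeR and DESeq2 on the recovered reads also called 0 of the 9. At an unadjusted p under 0.05 from limma, 4 of the 9 were higher (*Neurod1*, *Stmn2*, *Elavl3* and *Mapt*) and 1 was lower (*Gap43*), beside 5.42% and 4.12% of all genes tested, and by this measure edgeR and limma-voom also gave 5 genes and DESeq2 1, as did limma without the trend, while limma gave 3 or 4 with a library left out. The libraries of the 2 groups did not overlap for 5 of the 9, each higher in the mutants (21.9% of all genes tested lay apart in this direction), and for 0 of the 9 in the other direction (16.8%). In bulk tissue, the number of neurons and the RNA of each neuron cannot be told apart. Without control replicate 1, with the spread then taken from the remaining 3 libraries, *Gap43* was called lower (log2 fold change −0.95, limma adjusted p = 0.0016) and *Elavl3* higher (0.64, limma adjusted p = 0.00844). Over the omission of each library in turn these adjusted p ran from 0.0016 to 0.98 for *Gap43* and from 0.00844 to 0.627 for *Elavl3*.

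**Figure D1:**
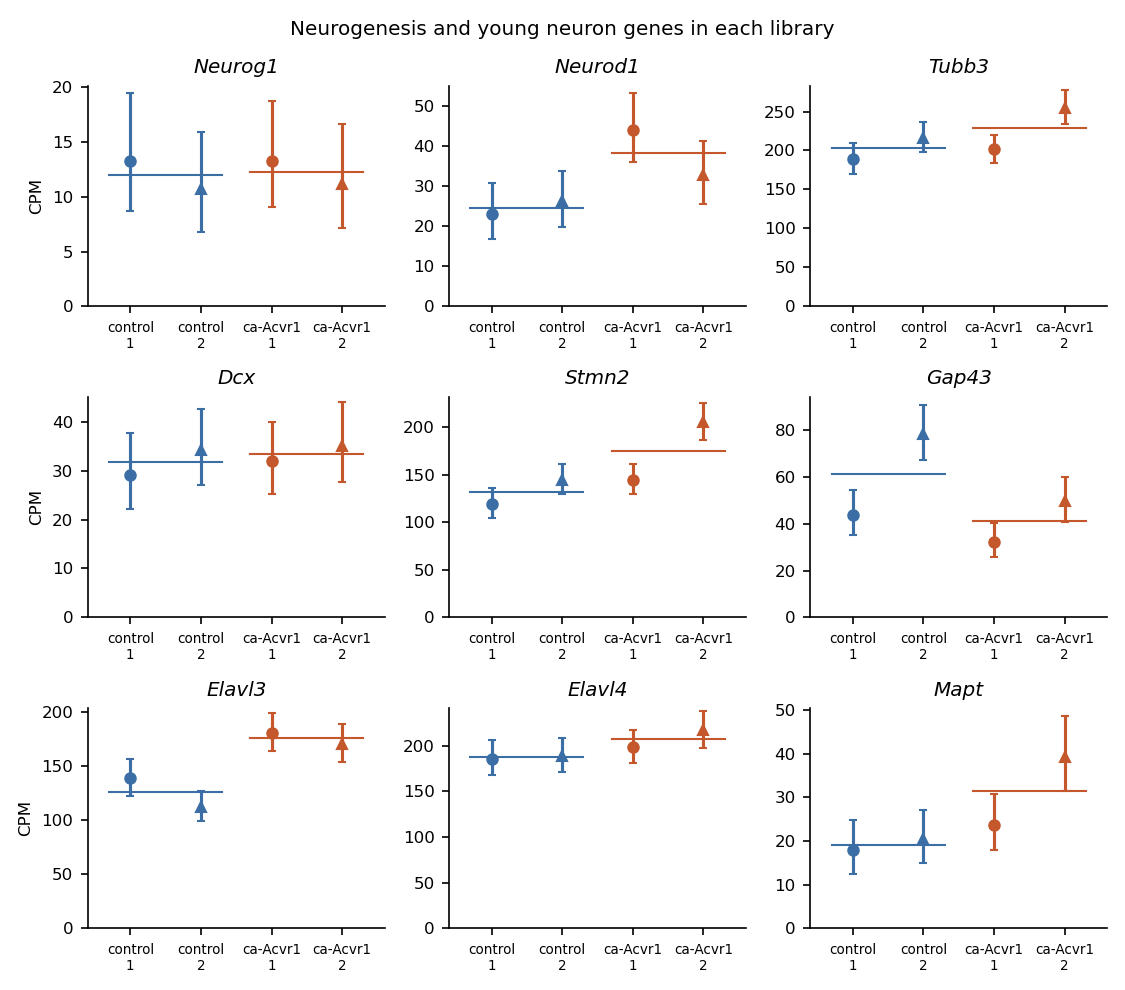
The level of each of the 9 genes, in CPM, in control replicates 1 and 2 and in mutant replicates 1 and 2. Points are libraries, horizontal lines are group means and bars are exact 95% intervals, which cover counting error only. *Elavl3* lay apart between the groups, from 112.3 to 138.5 against 170.3 to 180.6 CPM, whereas *Neurog1* overlapped.

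*Neurog1* (Entrez 18014, GRCm38 chr13:56250478-56252163), which starts the neuronal program in placodal and neural progenitors, was at 13.3 and 10.7 CPM in the controls against 13.3 and 11.2 CPM in the mutants. The groups overlapped throughout. Each value rests on 24 to 32 reads, and the counting interval of control replicate 1 alone ran from 8.68 to 19.5 CPM. The log2 fold change was 0.03 (95% interval −0.58 to 0.65, limma adjusted p = 0.987). Its sign turned without control replicate 2 (−0.11) and without mutant replicate 1 (−0.08).

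*Neurod1* (Entrez 18012, GRCm38 chr2:79452521-79456751), which acts after *Neurog1* in cells that leave the cycle as neurons, was at 23.0 and 26.2 CPM in the controls against 44.0 and 32.8 CPM in the mutants. Both mutant libraries lay above both control libraries, with replicate 1 the highest of the 4. A log2 fold change of 0.61 (standard error 0.22, 95% interval 0.15 to 1.06) missed the threshold (limma adjusted p = 0.305), and it was 0.40 without mutant replicate 1. The ratio of *Neurod1* to *Neurog1*, a comparison chosen after the values were seen, was 1.73 and 2.46 in the controls against 3.31 and 2.92 in the mutants. These ratios did not overlap, and an exact two-sided permutation test over the libraries gave p = 0.333, the smallest that 2 libraries against 2 allow. The last exon of *Neurod1* is crossed on the other strand by an exon of a noncoding gene, *Gm26755*, in the GENCODE annotation, and the strand setting of the counting is not given in the sources used here. *Gm20388*, which runs across *Tubb3* on the same strand, has no exon over the last exon of *Tubb3*.

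The DNA before the starts of the proneural genes is shown because E-boxes are the motifs through which these factors act on one another and on neuronal genes. RefSeq windows of 300 bases, 250 before and 50 after a gene start, were found for 6 of the 9 genes, in 10 windows of GRCm38.p6; *Stmn2*, *Gap43* and *Mapt* had none. Of all 32851 windows, 72.3% hold CANNTG on either strand, 17.2% hold CAGATG or its reverse complement and 16.3% hold CAGCTG, both of which are forms of CANNTG. Each stretch lies before the gene start, outside annotated exons, on the minus strand, and capitals mark CANNTG.
*Neurog1*, chr13:56252181-56252430: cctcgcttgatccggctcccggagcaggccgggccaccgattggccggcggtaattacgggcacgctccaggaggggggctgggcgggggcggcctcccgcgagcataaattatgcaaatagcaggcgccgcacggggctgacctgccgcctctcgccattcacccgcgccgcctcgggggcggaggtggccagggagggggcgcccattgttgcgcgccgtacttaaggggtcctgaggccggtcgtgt
*Neurod1*, chr2:79456786-79456886: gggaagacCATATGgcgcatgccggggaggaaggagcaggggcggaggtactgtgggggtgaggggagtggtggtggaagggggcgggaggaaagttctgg
The *Neurod1* window held 1 CANNTG and that of *Neurog1* 1, which lay outside the stretch shown, and neither window held CAGATG or CAGCTG. These are matches of letters in a window, with no measurement of binding.

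Among the microtubule genes, *Tubb3* (Entrez 22152, GRCm38 chr8:123411424-123422015), the neuronal beta-tubulin, was at 189.1 and 216.6 CPM in the controls against 201.8 and 255.0 CPM in the mutants. The groups overlapped, since mutant replicate 1 lay between the control libraries (log2 fold change 0.16, 95% interval −0.14 to 0.47, limma adjusted p = 0.813). *Dcx* (Entrez 13193, GRCm38 chrX:143855842-143933311), a microtubule-binding protein of migrating neurons, was at 29.1 and 34.2 CPM in the controls against 32.0 and 35.1 CPM in the mutants. It overlapped in the same way (log2 fold change 0.08, 95% interval −0.35 to 0.52, limma adjusted p = 0.95). The fold change of *Dcx* was −0.03 without control replicate 1. That of *Tubb3* was at 0.00 to 2 decimals without mutant replicate 2.

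*Stmn2* (Entrez 20257, GRCm38 chr3:8509360-8561606), a tubulin-binding protein of growing axons, was at 119.6 and 144.7 CPM in the controls against 144.9 and 205.4 CPM in the mutants. The groups did not overlap, but mutant replicate 1 stood next to control replicate 2, and replicate 2 alone was far above. Its log2 fold change of 0.39 (standard error 0.16) missed the threshold (limma adjusted p = 0.424) and was 0.14 without that library. *Mapt* (Entrez 17762, GRCm38 chr11:104231390-104332090), which encodes the axonal protein tau, was at 17.9 and 20.4 CPM in the controls against 23.7 and 39.3 CPM in the mutants. Its pattern was alike, with mutant replicate 2 the highest by a wide margin. Its log2 fold change was 0.65 (standard error 0.25, limma adjusted p = 0.354), and it was 0.29 without mutant replicate 2.

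*Gap43* (Entrez 14432, GRCm38 chr16:42248442-42340651), a protein of the growth cone membrane, went against the other genes in sign. It was at 43.9 and 78.6 CPM in the controls against 32.4 and 49.6 CPM in the mutants. The groups overlapped, since control replicate 1 lay below mutant replicate 2, and the control libraries differed from each other by a ratio of 1.79. The log2 fold change was −0.54 (standard error 0.23, limma adjusted p = 0.432), and it was −0.13 without control replicate 2.

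The neuronal RNA-binding genes *Elavl3* and *Elavl4* encode Hu proteins, which stabilize transcripts of differentiating neurons. *Elavl3* (Entrez 15571, GRCm38 chr9:22015005-22052023) was at 138.5 and 112.3 CPM in the controls against 180.6 and 170.3 CPM in the mutants. Each mutant library lay above each control library, and of the 9 genes it had the smallest p (log2 fold change 0.49, standard error 0.15, unadjusted p = 0.00318 and limma adjusted p = 0.178). It was at 0.34 without control replicate 2. *Elavl4* (Entrez 15572, GRCm38 chr4:110203722-110351909) was at 186.0 and 189.1 CPM in the controls against 198.4 and 217.1 CPM in the mutants. These groups also lay apart, though by less, with a log2 fold change of 0.15 (95% interval −0.14 to 0.43, limma adjusted p = 0.829) that was 0.08 without mutant replicate 2. The stretch before the start of *Elavl3*, its single window, is shown as above for the E-boxes, from the minus strand of the same build.
*Elavl3*, chr9:22052024-22052273: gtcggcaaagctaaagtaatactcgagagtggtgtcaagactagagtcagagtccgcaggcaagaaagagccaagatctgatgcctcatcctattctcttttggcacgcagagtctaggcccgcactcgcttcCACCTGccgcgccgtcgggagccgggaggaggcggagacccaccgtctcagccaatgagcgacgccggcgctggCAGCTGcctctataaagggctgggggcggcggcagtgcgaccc
The *Elavl3* window held 2 CANNTG, of which 1 is CAGCTG. *Elavl4* has 4 windows, of which that at the outermost start of the gene held 0 CANNTG, while 3 at starts within the gene, 2 of them overlapping, held 1, 4 and 4. The windows of *Tubb3* and *Dcx* held 0.

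**Figure D2:**
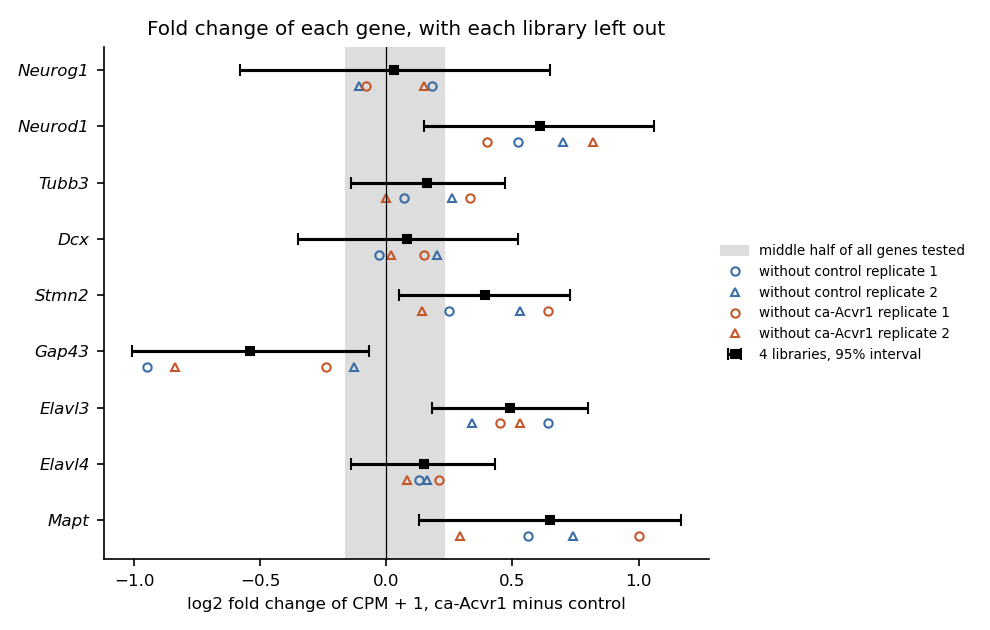
The log2 fold change of CPM + 1 (ca-*Acvr1(A11)* minus control) of each gene. Squares and bars are limma estimates over 4 libraries with 95% intervals, open symbols are estimates with 1 library left out, and the grey band spans the quartiles of all genes tested, from −0.16 to 0.23. *Gap43* moved most when a library was left out, from −0.95 to −0.13.

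Of the 9 fold changes, 8 were above 0, as were 54.2% of all genes tested. The median of the 7 differentiated neuron genes was 0.16, beside 0.03 over all genes tested, and with each library left out it ran from 0.08 to 0.33, the last without mutant replicate 1. Summed over these 7 genes, the level was 724.1 and 796.0 CPM in the controls against 813.7 and 971.9 CPM in the mutants. The sum of both proneural genes was 36.3 and 36.8 CPM in the controls against 57.3 and 44.0 CPM in the mutants. The ratio of the differentiated to the proneural sum was 20 and 21.6 in the controls against 14.2 and 22.1 in the mutants. This ratio overlapped between the groups (exact two-sided permutation p = 1, where 0.333 is the smallest possible). The 5 other genes with profiles nearest to the median profile of the 9 over the 4 libraries were *Prrc2a*, *Mrps5*, *Terf2ip*, *Ireb2* and *Fech*, with root-mean-square differences from 0.027 to 0.0297 on the log2 scale among 6560 genes of at least 20 CPM.

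Other young neuron genes were read from a list of 50, of which 46 were tested. limma called 0 of the 46, edgeR 0 and DESeq2 0, and at an unadjusted p under 0.05 from limma 11 were higher and 0 lower, beside 5.42% and 4.12% of all genes tested. Both directions together, this count was 7 in edgeR, 0 in DESeq2, and 2 in limma both without the trend and without mutant replicate 2. Their median log2 fold change was 0.22, beside 0.03 over all genes tested, and ran from 0.12 to 0.33 with a library left out, and 35 of the 46 were above 0. Their summed level overlapped, at 8630.8 and 9367.0 CPM in the controls against 8499.6 and 9754.7 CPM in the mutants, and *Tuba1a*, the most abundant, was lower and apart (−0.24, limma adjusted p = 0.698). The ratio of the mean sums, mutant to control, was 1.01 with *Tuba1a* and 1.09 without it. The smallest p belonged to *Map1b*, a microtubule-binding protein, at 803.3 and 449.3 CPM in the controls against 864.3 and 848.8 CPM in the mutants. Control replicate 2 alone was low, and the log2 fold change of 0.51 (limma adjusted p = 0.270) was 0.09 without it. *Celf3* and *Nova2*, neuronal RNA-binding proteins, followed with 0.61 and 0.68 (limma adjusted p = 0.301 and 0.329), and *Nova2* was at 0.32 without mutant replicate 2. Without control replicate 1, *Map1b* and *Nrcam* were called higher and *Stmn1* lower (limma adjusted p = 6.61e-09, 0.0233 and 0.0241).

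Of 25 other neurogenic factors tested, 2 were called higher and 1 lower, with a median log2 fold change of 0.11. Over all genes tested, 0.305% were called higher and 0.594% lower, and the median was 0.03. These are the shares that stand beside the calls of each list below. *Ebf1*, an early B cell factor family protein of olfactory neuron precursors and of mesenchyme, was at 51.1 and 75 CPM in the controls against 31.6 and 29.5 CPM in the mutants. It fell in the mutants, with both libraries below both controls (log2 fold change −1.0, standard error 0.20, limma adjusted p = 0.0102), a call lost without control replicate 2 (−0.73, limma adjusted p = 0.191) and in DESeq2 (adjusted p = 0.115). *Onecut2*, a transcription factor of early neurons, rose from 63.4 and 41.3 CPM to 88.4 and 89.4 CPM (log2 fold change 0.79, limma adjusted p = 0.0362). *Btg2*, an antiproliferative gene of neurogenic progenitors that is also a p53 target, rose from 58.3 and 54.6 CPM to 89.3 and 93.1 CPM (0.68, limma adjusted p = 0.0411). Both lay apart from control in both libraries, but their calls were lost in DESeq2 (adjusted p = 0.562 and 0.588), for *Btg2* in limma-voom (0.0509), and on omission of each library except control replicate 1, where limma gave adjusted p of up to 0.414 and 0.288 and the log2 fold change of *Onecut2* was as low as 0.48, without control replicate 2. *Neurog3*, *Atoh1*, *Neurod6* and *Onecut1* were not listed, and *Neurod2* lay under 1 CPM.

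Of the 13 inhibitors and repressors tested, which include the Id proteins, Hes and Hey factors and the REST complex, limma called 0, with 3 higher and 4 lower at an unadjusted p under 0.05 (beside 5.42% and 4.12% of all genes tested). At that p, 1 to 5 passed with a library left out, 1 without the trend and 2 in DESeq2. *Id2*, a target of BMP signaling in many cells, was at 406.3 and 713.8 CPM in the controls against 323.4 and 406.6 CPM in the mutants. Control replicate 2 alone was high, and mutant replicate 2 lay within 1 CPM of control replicate 1 (log2 fold change −0.57, limma adjusted p = 0.187), although edgeR called it lower (adjusted p = 0.0463). *Id1* had a like pattern (−0.50, limma adjusted p = 0.385), and *Id3* lay lower and apart (−0.33, limma adjusted p = 0.446). *Id4* had the opposite sign (0.46, limma adjusted p = 0.192). Without control replicate 1, *Id2*, *Id1* and *Id3* were called lower (limma adjusted p = 4.36e-09, 7.68e-06 and 0.0175), and *Id2* also without mutant replicate 2 (0.0269), while *Id4* was called higher without control replicate 2 (limma adjusted p = 0.0192). Without that library the log2 fold changes of *Id2*, *Id1* and *Id3* were −0.16, −0.03 and −0.14 (limma adjusted p = 0.923, 0.992 and 0.937).

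**Figure D3:**
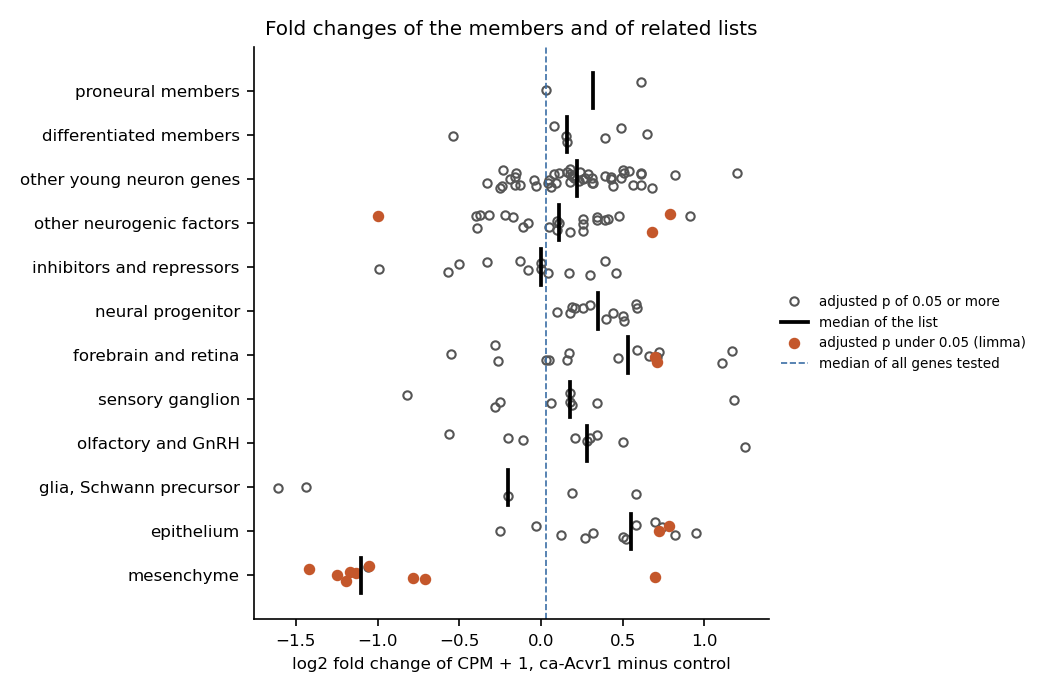
The log2 fold change of CPM + 1 (ca-*Acvr1(A11)* minus control) of each tested gene in the 9 genes and in related lists. Each circle is a gene, filled where limma gave an adjusted p under 0.05, with vertical lines at list medians and a dashed line at the median of all genes tested, 0.03. The median was 0.16 for the differentiated neuron genes and −1.10 for mesenchyme.

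Markers of other cell types in the tissue were read in the same way. Of 12 neural progenitor genes tested limma called 0 and 7 were higher at an unadjusted p under 0.05 (beside 5.42% of all genes tested), and their median was 0.35. At that p, 3 to 6 passed with a library left out, 2 without the trend and 3 in DESeq2. Their summed level was 1674.6 and 1528.0 CPM in the controls against 2130.1 and 2009.3 CPM in the mutants, with *Sox2* the most abundant. For *Sox2* the log2 fold change was 0.50 (limma adjusted p = 0.0803), followed by *Pax6* and *Sox1* (both limma adjusted p = 0.175), and the 3 were called without control replicate 1 (0.00678, 0.000761 and 0.00284). Without control replicate 2, however, *Pax6* and *Sox1* were at 0.30 and 0.31 (limma adjusted p = 0.792 and 0.715), and without mutant replicate 2 the adjusted p of *Sox2* was 0.552. Of 16 forebrain and retina genes, *Six3* and *Otx2* were called higher (log2 fold changes 0.71 and 0.70, limma adjusted p = 0.0278 and 0.0164), and the median was 0.53. The sum of this list was 1099.2 and 841.3 CPM in the controls against 1450.5 and 1368.3 CPM in the mutants, with *Six3* the most abundant. Both calls were lost without control replicate 2 (log2 fold changes 0.35 and 0.50, limma adjusted p = 0.372 and 0.111), without mutant replicate 1 (0.70 and 0.62, limma adjusted p = 0.0518 and 0.170) and in DESeq2.

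Of 14 epithelial genes, *Epcam* and *Cdh1* were called higher (0.72 and 0.78, limma adjusted p = 0.0264 and 0.0145), calls lost without mutant replicate 1 (0.202 and 0.102) and in DESeq2 (0.372 and 0.204), for *Epcam* also without mutant replicate 2 (0.0832) and for *Cdh1* without control replicate 2 (0.0924). The epithelial sum was 296.9 and 274.4 CPM in the controls against 452.5 and 424.0 CPM in the mutants, with *Cdh1* the most abundant. Of 10 mesenchyme genes, 8 were called lower and 1, *Dlk1*, higher (0.70, limma adjusted p = 0.0437), a call lost without control replicate 2 (0.31, limma adjusted p = 0.481), without mutant replicate 1 (0.64, limma adjusted p = 0.124), in edgeR (0.0563) and in DESeq2. The 8 were *Prrx1*, *Prrx2*, *Twist1*, *Twist2*, *Alx1*, *Col1a1*, *Col1a2* and *Col3a1*, of which 5 were called without control replicate 2 and 5 without mutant replicate 1. The mesenchyme sum was 2474.9 and 2515.3 CPM in the controls against 2010.1 and 1991.6 CPM in the mutants, and without *Dlk1*, the most abundant, it was 1537.2 and 1966.6 CPM in the controls against 796.2 and 874.6 CPM in the mutants. Of the 17 genes of all lists that limma called, DESeq2 called 4, edgeR 16 and limma-voom 15. The part that the marker genes called here have in the values of the 9 genes was not tested.

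**Figure D4:**
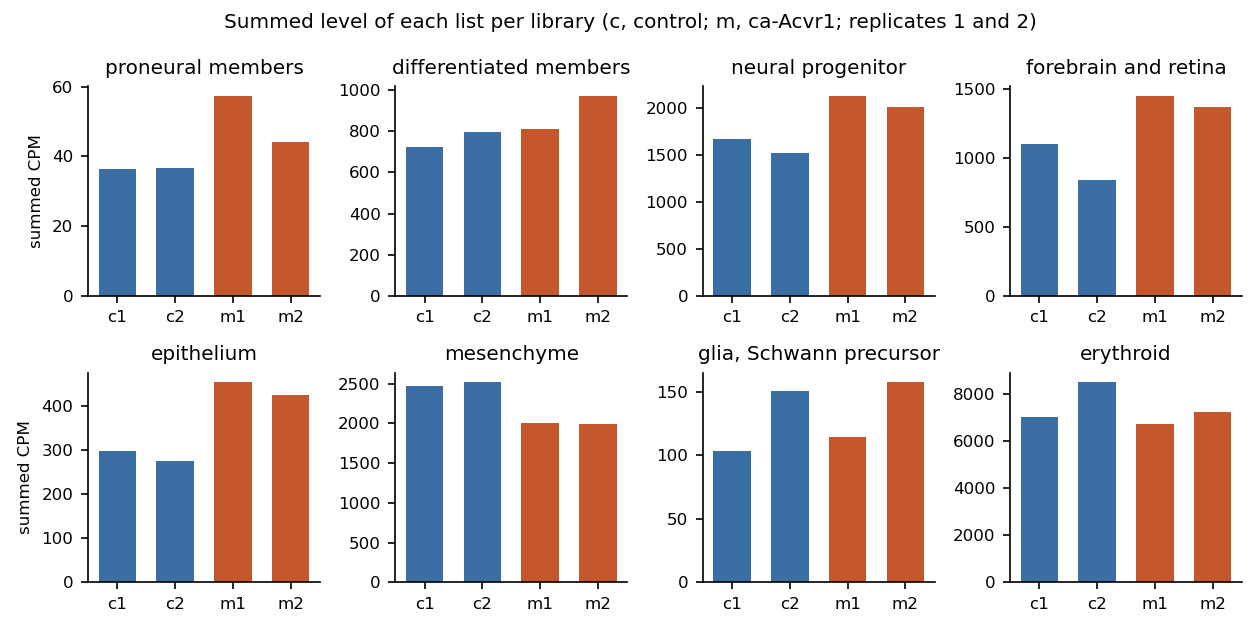
Summed CPM of 8 gene lists in each library, with control replicates as c1 and c2 and mutant replicates as m1 and m2. Bars start at 0 and each panel has its own scale. The epithelial sum was higher in both mutant libraries (424.0 and 452.5 CPM) than in both control libraries (274.4 and 296.9 CPM).

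Possible sources of the neurons were read from marker lists for sensory ganglia and for olfactory and GnRH neurons. The forebrain and retina list, given above, also holds neuron genes. Among them, *Tbr1* was at 19.4 and 20.4 CPM in the controls against 14.5 and 18.7 CPM in the mutants (log2 fold change −0.26, limma adjusted p = 0.84). *Gad2* had the opposite sign (0.59, limma adjusted p = 0.354). The part of each source in the values of the 9 genes was not tested. Of 15 sensory ganglion genes, *Pou4f2*, *Tlx3* and *Prrxl1* were not listed and *Pou4f1*, *Avil* and *Prph* had a mean under 1 CPM, and limma called 0 of the 9 tested. The list summed to 218.2 and 257.0 CPM in the controls against 268.6 and 273.3 CPM in the mutants. *Eya2*, also a placodal gene, was the most abundant by its mean over the 4 libraries. In both mutant libraries *Isl1* was higher, at 77.6 and 81.9 CPM against 70.2 and 78.6 CPM for *Eya2*. Of 18 olfactory and GnRH neuron genes, *Omp*, the marker of mature olfactory neurons, *Cnga2*, *Adcy3*, *Rtp1*, *Kirrel2* and *Trpc2* were not listed and *Gng13*, *Ncam2* and *Kirrel3* had a mean under 1 CPM, and limma called 0 of the 9 tested. The smallest p was that of *Gnrh1*, at 2.04 and 0.888 CPM in the controls against 3.32 and 6.55 CPM in the mutants (log2 fold change 1.25, limma adjusted p = 0.329, from 0.85 to 1.66 with a library left out). These values of *Gnrh1* rest on only 4 and 2 reads against 8 and 14 reads. The olfactory and GnRH list summed to 404.7 and 308.1 CPM in the controls against 437.1 and 402.9 CPM in the mutants. *Lhx2*, the most abundant, made up 227.4 and 168.3 CPM against 264.9 and 230.7 CPM. *Lhx2* and *Ebf2* also stand in the list of other neurogenic factors, so the sum does not measure olfactory or GnRH neurons alone. The ratio of the mean sums, mutant to control, was 1.18 with *Lhx2* and 1.09 without it. The level of a gene that was not listed is not known here.

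*Sox10* and *Foxd3*, of the glia and Schwann cell precursor list, were at 9.71 and 7.99 CPM and at 3.07 and 7.99 CPM in control, and at 2.08 and 3.28 CPM and at 1.66 and 0.468 CPM in mutant libraries. Both lay apart between the groups and neither passed the threshold (limma adjusted p = 0.0926 and 0.178). The values of *Sox10* rest on 5 to 19 reads a library. *Foxd3* rests on 1 to 18 reads a library, and it passed without control replicate 1 (−2.19, limma adjusted p = 0.0138) but was at −1.04 without control replicate 2 and −1.18 without mutant replicate 2 (limma adjusted p = 0.798 and 0.728), beside −1.61 over 4 libraries. *Ednrb*, of the same list, had the opposite sign and also lay apart, at 14.3 and 15.5 CPM in the controls against 19.1 and 27.1 CPM in the mutants (log2 fold change 0.58, limma adjusted p = 0.474), and was at 0.34 without mutant replicate 2. *Erbb3* was not listed, limma called 0 of the 5 genes tested, and the sum was 103.7 and 150.9 CPM in the controls against 114.2 and 157.2 CPM in the mutants, with *Fabp7* the most abundant. *Fabp7* also stands in the neural progenitor list. The ratio of the mean sums, mutant to control, was 1.07 with *Fabp7* and 0.909 without it. Over the 4 libraries, the lists for erythroid cells (6 tested), endothelium (8) and skeletal muscle (3) held 0 calls by limma, with 0 genes at an unadjusted p under 0.05. *Hbb-y*, *Kdr* and *Tnnt1* were their most abundant genes. The erythroid median log2 fold change was −0.12, and it was −0.31 without control replicate 1. Of 7 macrophage genes, *Cx3cr1*, the most abundant, was called higher (1.04, limma adjusted p = 0.0143), a call lost without mutant replicate 2 (limma adjusted p = 0.266) and in DESeq2 (0.300). This list summed to 46.0 and 44.4 CPM in the controls against 71.0 and 107.2 CPM in the mutants.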

How the data were processed

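RNA of E11.5 NP tissues was made into 4 QuantSeq 3′ libraries. The submitters' processing notes name STAR, featureCounts 1.6.4, DESeq2 and mm10. The authors deposited CPM values for 13577 genes, and 99.921% of the values were whole reads within 0.02 reads. The other 43 values lay in 22 genes, none of them among the 9. Here limma 3.58.1 was run on log2(CPM + 1) for 12462 genes with a mean above 1 CPM, with a trend and Benjamini-Hochberg adjustment over all of them, after being tested on simulated data. On this scale the change of low genes is understated. limma-voom, edgeR 4.0.16 and DESeq2 1.42.0 (R 4.3.3, Python 3.11.15, scipy 1.17.1) were run on the recovered reads, and pseudocounts, filters, scalings, variance models, a replicate block and each library's omission were alternatives. The members and lists were chosen with earlier results of these data known. Followed under each alternative, though not all are given in the text, were the 9 genes, *Acvr1*, each list's called genes and its 3 with the smallest p, each marker list's most abundant gene and its genes at 0, and the 5 genes of nearest profile. Of the genes in the lists, 7 stand in 2 lists. In the lists, 3 genes were dropped after the fits, for a reason other than their values, and are not reported here. Intervals on reads are exact (Clopper-Pearson).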

Additional observations from a re-analysis of the deposited data

How the results depend on the processing

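With the trend left out of limma's variance model, 0 genes were called higher and 0 lower over all genes, against 38 and 74, and with DESeq2 7 and 25. The cause was not tested. With the replicate block 97 were higher and 132 lower, 0 of the 9 genes and 1 of the other young neuron genes (*Map1b*) were called, *Id2*, *Sox2*, *Pax6*, *Sox10* and *Foxd3* gained the call, and since same-numbered libraries did not deviate together (correlation over genes 0.0671) the numbers were not taken to pair the samples. With each library left out in turn, calls ran from 32 to 241 higher and from 56 to 221 lower, the 9 genes called from 0 to 2, the other young neuron genes called from 0 to 3, and the median of the 7 differentiated neuron genes from 0.08 to 0.33. These fits hold 3 libraries, and the lone library is assumed to vary like the others. Some log2 fold changes turned in sign when a library was left out, running from −0.11 to 0.18 for *Neurog1*, 0.00 to 0.33 for *Tubb3*, −0.03 to 0.20 for *Dcx*, −0.77 to 0.11 for *Acvr1*, −0.64 to 0.08 for *Alas2*, −0.07 to 0.60 for *Slc4a1*, −0.38 to 0.07 for *Emcn* and −0.03 to 0.52 for *Tnnt1*. Under the other pseudocounts, filters, scalings, variance model and tests, all 99 values of the 9 genes kept their sign and their side of the threshold. Of the values of the other genes followed under these settings, 43 lost the call and 1 gained it (*Id2* in edgeR), and with a library left out 24 lost and 12 gained it. With a pseudocount of 0.1, *Onecut2*, *Btg2*, *Six3*, *Twist1*, *Col3a1* and *Dlk1* lost the call, and with 0.5 or a filter of 5 CPM *Twist1* and *Dlk1*. Of the 9 genes *Neurog1* had the fewest reads, 24 to 32 a library.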
